A study of Mus musculus with 12 samples.

Results

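Atf3, Dusp5, Fosl1 and Myc are 4 stress-inducible genes on a targeted kidney panel of 770 genes, of which 750 are endogenous and 20 are housekeeping genes. They were taken by gene name, and each is read by 1 probe. Kidney RNA came from 12 female mice aged 8 to 10 weeks, 3 in each of 4 groups. Wild-type mice (WT), described as F1 littermates, and mice lacking Aim2 (KO), described as B6, were left untreated (control) or received nephrotoxic serum (NTS), an antibody preparation against the glomerular basement membrane that causes an immune glomerulonephritis. Treated kidneys were taken at day 9, and no day is given for the untreated ones. The labels do not say how alike the strain backgrounds of WT and KO mice are in other respects. Aim2 encodes a sensor of cytosolic DNA. Its level was not analysed here and gives no check on genotype. The study asks how kidneys respond to the serum with and without Aim2.

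Immediate early genes are transcribed within minutes of a growth or stress signal without the need for new protein, and several encode transcription factors. Atf3 encodes a basic leucine zipper factor of the ATF/CREB family that is switched on by many forms of cell stress and can pair with JUN proteins. Fosl1 encodes FRA-1, a FOS-family subunit of the transcription factor AP-1. Myc encodes a factor that pairs with MAX at E-boxes and drives growth and entry into the cell cycle. Dusp5 encodes a nuclear phosphatase that inactivates ERK kinases and is itself induced by ERK signalling, so it forms a feedback loop. In the kidney, Atf3 and Myc are known to be induced in injured tubules.

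RefSeq promoter windows (GRCm38.p6, 250 bases before to 50 after the gene start) were available for 2 of the 4 genes, Atf3 and Dusp5. They are shown because both genes moved with the serum and both windows hold elements known from stress- and serum-responsive genes. The Atf3 window lies at chr1:191183284-191183583 on the minus strand and the Dusp5 window at chr19:53528895-53529194 on the plus strand. Each is written 5′ to 3′ along its gene. Capitals mark matches to ACGTCA, the core of the cyclic AMP response element bound by ATF/CREB factors, and to the CArG box, the element bound by serum response factor.
Atf3: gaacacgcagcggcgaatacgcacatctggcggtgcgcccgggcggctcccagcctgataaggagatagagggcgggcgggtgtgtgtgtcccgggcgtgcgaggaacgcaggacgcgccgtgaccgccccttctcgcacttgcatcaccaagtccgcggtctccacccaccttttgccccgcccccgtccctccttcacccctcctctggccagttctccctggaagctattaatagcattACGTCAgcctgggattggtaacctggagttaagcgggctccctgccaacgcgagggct
Dusp5: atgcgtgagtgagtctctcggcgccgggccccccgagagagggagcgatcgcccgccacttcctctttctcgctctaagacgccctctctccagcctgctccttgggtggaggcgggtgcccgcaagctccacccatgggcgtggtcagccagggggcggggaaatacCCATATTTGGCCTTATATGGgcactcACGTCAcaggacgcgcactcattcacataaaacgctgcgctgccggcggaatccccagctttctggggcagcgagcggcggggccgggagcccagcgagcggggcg
The Atf3 window held ACGTCA once, from base -8 to base -3 counted back from the gene start. The Dusp5 window held it once as well, at -56 to -51, and next to it a pair of adjacent CArG boxes at -82 to -73 and -72 to -63. On either strand, ACGTCA occurred in 7.51% of the 32851 promoter windows in the table, and the CArG box in 1.63%. At least 2 CArG boxes were found in 6 windows, or 0.018%. The full element TGACGTCA (in 1.79% of windows, and overlapping the core), the AP-1 site TGANTCA (7.81%) and the E-box CACGTG (7.15%) had 0 matches in both windows. These are matches of letters, and no binding was measured.

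The deposited values are a normalized signal per gene, scaled so that the housekeeping genes have an equal geometric mean in each sample. A floor per sample, set at the geometric mean of its negative controls, lay between 10.02 and 15.11, and 53 to 140 genes per sample sat on it. Above the floor, 1 probe count was worth 0.955 to 1.09 of signal, so a signal near 15 rests on about 15 counts. Of 770 genes, the 677 that reached a signal of 20 in 3 or more samples were tested. The 4 genes all passed that filter. Fosl1 passed it only through KO NTS, where all 3 of its values above 20 lie, so it had to differ between groups once tested. Its tests that involve KO NTS are given as a description and not as evidence on a par with the other 3 genes. Areg, Ccl11, Cxcl2, Dusp2, Hk2 and Tpsab1, named below, also passed the filter only with their KO NTS values. Tests of these genes that involve KO NTS are likewise descriptions, also where they count in a list.

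Atf3 was the gene of the 4 that changed in both genotypes. In WT controls 1, 2 and 3 its signal was 63.05, 41.47 and 35.6, and in KO controls it was 67.88, 50.86 and 38.47. After the serum it was 208.66, 90.71 and 129.96 in WT kidneys and 567.36, 313.11 and 368.23 in KO kidneys. Each treated mouse lay above each untreated mouse of either genotype, and each KO NTS mouse lay above each WT NTS mouse. The means rose in the order WT control (46.7 ± 14.5), KO control (52.4 ± 14.8), WT NTS (143 ± 60.1) and KO NTS (416 ± 134, SD, n = 3 each). Both control groups overlapped.

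Myc had the highest counts of the 4 and so the smallest counting error. Its signal was 289.44, 181.31 and 223.04 in WT controls and 307.65, 169.89 and 194.43 in KO controls. WT NTS mice stood at 709.45, 326.36 and 285.13, and KO NTS mice at 1429.7, 979.27 and 1334.85. WT NTS 3 fell within the range of the controls, while all 3 KO NTS mice lay above the other 9 mice. The means ran from 224 ± 73.5 (KO control) and 231 ± 54.5 (WT control) to 440 ± 234 (WT NTS) and 1248 ± 237 (KO NTS; SD, n = 3 each). Neighbours in that order overlapped, except that KO NTS stood apart.

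Fosl1 was close to background everywhere but in KO NTS. The authors' deposited table lists it above their threshold in 58.33% of samples, which are the 7 samples above the floor. Its 3 KO NTS values were 73.75, 28.07 and 62.33, equal to 75, 26 and 65 probe counts. In those samples the negative controls reached at most 26, 23 and 24 counts. The other 9 mice ranged from 12.35 to 17.47, and 5 of them sat at the floor: WT controls 2 and 3, WT NTS 3 and KO controls 1 and 2. WT NTS 1 and 2 had 18 and 14 counts, within the range of their negative controls (6 to 23 and 6 to 14). Means were 14.5 ± 1.93 (WT control), 14.6 ± 2.09 (KO control), 14.8 ± 2.57 (WT NTS) and 54.7 ± 23.8 (KO NTS; SD, n = 3 each), and the first 3 groups overlapped. At this depth no level of Fosl1 was detectable outside KO NTS, which is not the same as absence.

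Dusp5, the ERK phosphatase, followed the pattern of Myc at a lower signal. WT controls 1, 2 and 3 had 61.14, 35.68 and 29.32, and KO controls had 37.22, 38.96 and 30.15. After the serum the signal was 107.73, 57.35 and 50.43 in WT and 205.51, 156.55 and 174.53 in KO kidneys. WT control 1 lay above WT NTS 2 and 3, so the WT groups overlapped, whereas each KO NTS mouse lay above all others. Group means were 35.4 ± 4.67 (KO control), 42 ± 16.8 (WT control), 71.8 ± 31.3 (WT NTS) and 179 ± 24.8 (KO NTS; SD, n = 3 each).

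**Figure D1:**
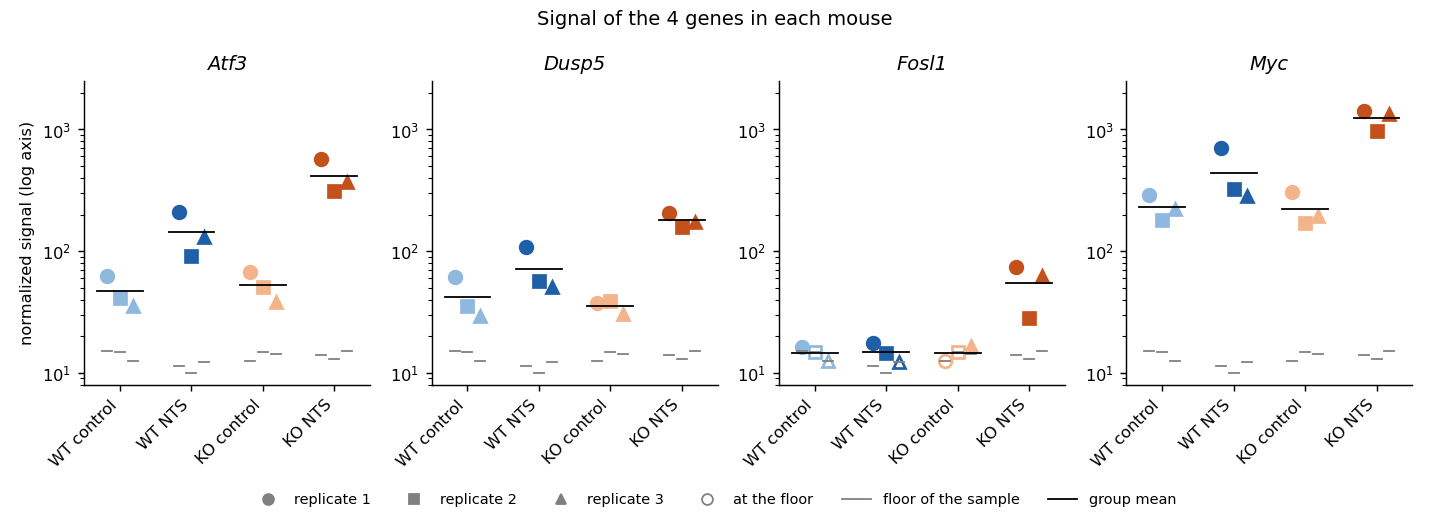
Normalized signal (log axis) of Atf3, Dusp5, Fosl1 and Myc in each of the 12 mice, by group, with group means as black lines, the floor of each sample as a short grey line and open symbols for values at the floor. The 3 KO NTS mice lie above the other 9 for each gene, and Fosl1 stays between 12.35 and 17.47 outside that group. Of all genes tested, 51.7% were higher without overlap in KO NTS than in KO control, and 39.1% than in WT NTS. The share with KO NTS above all 9 others was not counted. Fosl1 entered the test only through its KO NTS values, so its separation was fixed by the filter.

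In untreated kidneys the genotypes were not told apart by any of the 4 genes. The differences KO minus WT were 0.17 for Atf3 (95% interval -0.60 to 0.94), -0.18 for Dusp5 (-0.89 to 0.53), 0.02 for Fosl1 (-0.67 to 0.70) and -0.07 for Myc (-0.81 to 0.67), all on the log2(signal + 1) scale. With limma, adjusted p lay between 0.933 and 0.982, and 0 of the 4 passed, against 0% of all genes tested called higher in KO. Of the 677 genes, 57 had an unadjusted p under 0.05, and none of these was a member. Untreated KO mice lay above untreated WT mice without overlap for 0 of the 4 genes and for 7.09% of all genes.

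In WT kidneys after the serum, 1 of the 4 genes passed the test. Atf3 rose 2.94-fold (log2 change 1.55, SE 0.35, adjusted p = 0.0246), with 3 of 3 treated mice above the controls. Myc (log2 change 0.83, SE 0.34, adjusted p = 0.167) and Dusp5 (0.75, SE 0.33, adjusted p = 0.197) had higher means that did not pass after correction. Fosl1 was at 0.03 (SE 0.31, adjusted p = 0.964). The background in this comparison was 5.47% of genes called higher, 2.51% called lower and 12.6% higher without overlap. Atf3 was the member called higher and the member higher without overlap, and 0 members were called lower. The Atf3 call rested on single mice: without WT NTS 1 its adjusted p was 0.0662 (log2 change 1.24), without WT control 3 it was 0.117, and with only the 6 WT mice in the fit it was 0.145.

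In KO kidneys Atf3, Myc and Dusp5 rose after the serum, and Fosl1, which that group brought into the test, was higher as well. Atf3 rose 7.76-fold (log2 change 2.96, SE 0.35, adjusted p = 0.000147), Myc 5.66-fold (2.50, SE 0.34, adjusted p = 0.000195) and Dusp5 4.93-fold (2.30, SE 0.33, adjusted p = 0.000244). Fosl1 had a log2 change of 1.73 (SE 0.31, adjusted p = 0.000915), but 2 of its 3 controls were at the floor, so its size depends on where the floor lies. For each gene 3 of 3 treated mice lay above the controls. This comparison had a high background, with 39.6% of genes called higher, 8.57% called lower and 51.7% higher without overlap, and the median change of all genes was 0.42. By size of change, Atf3 was 18th, Myc 32nd, Dusp5 41st and Fosl1 96th of 677.

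Among treated kidneys, Atf3, Myc and Dusp5 were higher in KO than in WT, and so was Fosl1, with the same limit. The differences were 1.57 for Atf3 (2.97-fold, SE 0.35, adjusted p = 0.00699), 1.61 for Myc (3.04-fold, SE 0.34, adjusted p = 0.00591), 1.38 for Dusp5 (2.60-fold, SE 0.33, adjusted p = 0.00846) and 1.72 for Fosl1 (SE 0.31, adjusted p = 0.005). For each gene the lowest KO NTS mouse was above the highest WT NTS mouse. Of all genes tested, 31.2% were called higher, 2.36% lower, and 39.1% were higher without overlap, and the median difference was 0.45. The Fosl1 difference is taken against WT NTS values at or near the floor, so its size cannot be set beside those of the other 3.

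**Figure D2:**
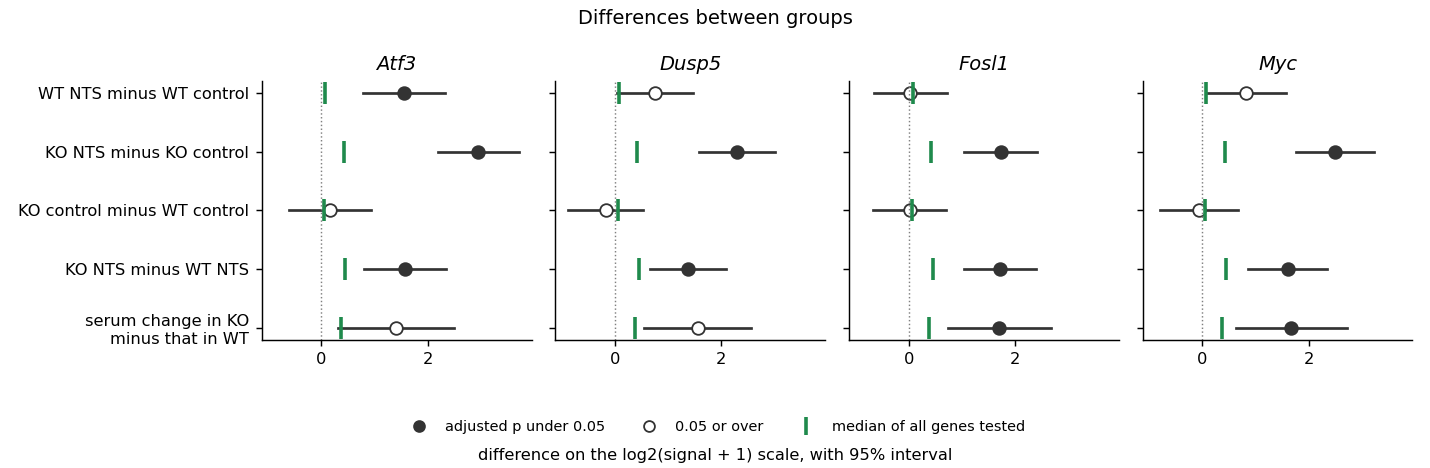
Difference between groups for each gene on the log2(signal + 1) scale (points) with its 95% interval (lines), filled where the adjusted p was under 0.05, and the median of all 677 genes (green). Serum in KO and KO NTS against WT NTS are filled for all 4 genes, while in untreated kidneys each interval spans 0. Fosl1 entered the test only through its KO NTS values.

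Whether the response itself differed by genotype was tested as the serum change in KO minus that in WT. The estimate was 1.67 for Myc (SE 0.48, adjusted p = 0.0469), which passed. Fosl1 had 1.70 (SE 0.45, adjusted p = 0.0356, or 0.0396 over all genes without the filter), but its direction was fixed by the filter and 5 of its 9 values outside KO NTS were at the floor. Dusp5 (1.56, SE 0.46, adjusted p = 0.0539) and Atf3 (1.40, SE 0.50, adjusted p = 0.0871) did not pass, with 95% intervals of 0.55 to 2.56 and 0.31 to 2.49, against 0.63 to 2.72 for Myc and 0.73 to 2.67 for Fosl1. Of all genes 9.6% were called higher in this contrast. These calls sit at the threshold. Scaling on common reference genes, on positive controls or on the median of each sample, and quantile normalization, each took the adjusted p of Myc and of Fosl1 above 0.05 (0.0609 to 0.102), and leaving out single mice did so for Myc with 10 and for Fosl1 with 9 of the 12 mice.

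**Figure D3:**
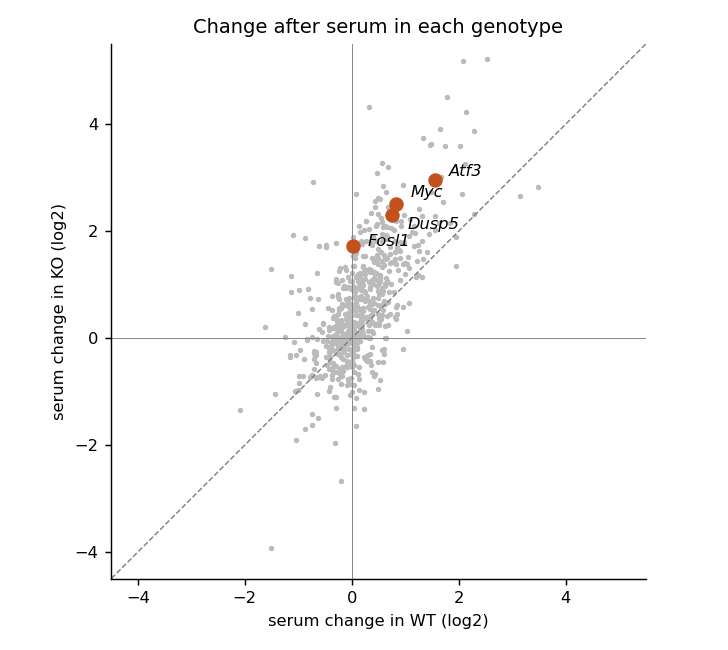
Log2 change after serum in WT (x axis) against that in KO (y axis) for the 677 genes tested (grey) with the 4 genes in orange; the dashed line marks equal change. All 4 lie above the line, and Fosl1 sits at 0.03 on the WT axis and 1.73 on the KO axis. Most genes lie above it too: the change in KO minus that in WT had a median of 0.375 over all genes tested. The place of Fosl1 above the line was fixed by the filter, which it passed only through its KO NTS values.

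In 3 of the 4 groups the same mouse was highest for all 4 genes, though for Fosl1 in WT controls the floors fixed this. KO NTS 1 was highest, KO NTS 3 next and KO NTS 2 lowest for all 4, an order shown by 16.7% of the 677 genes. WT NTS 1 was the highest treated WT mouse for all 4, as it was for 62.9% of genes. WT control 1 was the highest WT control for all 4, against 32.6% of genes. For Fosl1, WT controls 2 and 3 sat at floors of 14.72 and 12.41. The floor of WT control 1 was 15.11, so it had to be highest for that gene. KO controls had no common order, with KO control 1 highest for Atf3 and Myc, 2 for Dusp5 and 3 for Fosl1. The spread was widest for Myc in WT NTS, where WT NTS 1 lay 0.81 above the group mean on the log2 scale, and for Fosl1 in KO NTS, where KO NTS 2 lay 0.83 below it. Dusp5 varied least among KO NTS mice, with a coefficient of variation of 13.8%, against 19% for Myc, 32.1% for Atf3 and 43.4% for Fosl1.

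**Figure D4:**
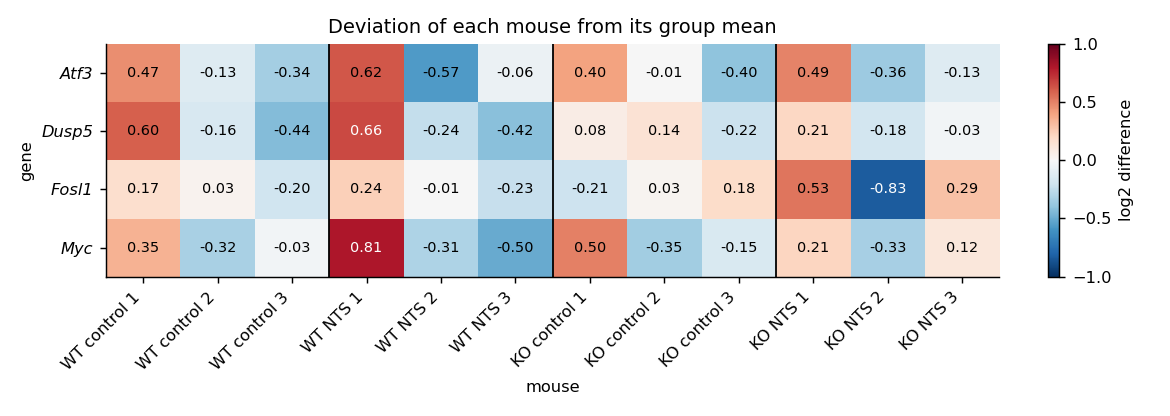
Deviation of each mouse from its group mean on the log2(signal + 1) scale, with mice in columns and genes in rows (red above, blue below the mean). WT control 1, WT NTS 1 and KO NTS 1 are above their group mean for all 4 genes, and KO NTS 2 is below it for all 4. The place of WT control 1 for Fosl1 was fixed by the floors.

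A list of AP-1 subunits and immediate early genes held 3 others on the panel: Batf3, Egr1 and Ier3, the last not itself a transcription factor. Here 3 rose in KO kidneys, 0 passed in WT kidneys and 2 were higher in KO among treated kidneys. The shares of all genes were 39.6% higher in KO kidneys and 31.2% higher in KO among treated kidneys. In KO kidneys 134 of the 677 genes tested rose with median centring, and 159 with quantile normalization. Dusp1, another immediate early gene, is counted with the ERK cascade below. Batf3, an AP-1 subunit of dendritic cells, went from 23.3 ± 4.66 to 48.5 ± 9.82 in KO kidneys (2.04-fold, adjusted p = 0.00507), and in treated kidneys was 2.10-fold higher in KO (adjusted p = 0.00772). Egr1, the serum-inducible zinc finger factor, went from 403 ± 432 to 1045 ± 167 (adjusted p = 0.0332), and its groups overlapped, with untreated KO mice from 128 to 901. In treated kidneys its difference of 1.49 did not pass (adjusted p = 0.108). Ier3 rose 1.55-fold (adjusted p = 0.0471). These 3 depended on the scaling: with median centring or quantile normalization 0 of 3 passed in KO kidneys and the Ier3 change reached -0.14, whereas Atf3, Dusp5 and Myc, and Fosl1 within its limit, passed in KO kidneys and between treated kidneys on all 5 scalings. Their median change in KO kidneys was 1.03, beside 0.42 for all genes.

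Of 7 genes of the ERK cascade tested beside its phosphatase Dusp5, 2 rose in KO kidneys, 0 passed in WT kidneys and 1 was higher in KO among treated kidneys, with a median change in KO kidneys of 0.27. For all genes that median was 0.42, with 39.6% higher in KO kidneys and 31.2% higher in KO among treated kidneys. Neither count of this list lies above these shares. Dusp2, a phosphatase of the same family, went from 18.4 ± 4.85 to 39.6 ± 8.99 in KO kidneys (2.10-fold, adjusted p = 0.0059) and was 1.89-fold higher in KO among treated kidneys (adjusted p = 0.0214). Only with its KO NTS values did Dusp2 pass the filter, the limit given for Fosl1. Nras, a RAS protein upstream of ERK, rose 1.51-fold in KO kidneys (adjusted p = 0.00746). Hras, Nf1, which switches RAS off, and the inhibitor Spry4 had changes of 0.25, 0.41 and -0.05 there (adjusted p = 0.423, 0.054 and 0.922). Dusp1, an immediate early phosphatase gene, did not pass in KO or WT kidneys or between treated kidneys. Over the 5 scalings it ranged from -0.50 to 0.47 in KO kidneys and from -1.15 to -0.76 in WT kidneys. Between treated kidneys Dusp1 ranged from -0.68 to 0.09. With median centring and quantile normalization, 0 of the 7 rose and 1 fell in KO kidneys, and the change of Nras turned to as low as -0.18.

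Of 15 ligands and receptors that signal to ERK or act beside it, 6 rose and 2 fell in KO kidneys, 1 rose and 1 fell in WT kidneys, and 4 were higher and 1 lower in KO among treated kidneys. The median change in KO kidneys was 0.45, near that of all genes. For all genes, 39.6% rose and 8.57% fell in KO kidneys, and 5.47% rose and 2.51% fell in WT kidneys. Among treated kidneys 31.2% were higher and 2.36% lower in KO. The count of ligands and receptors that rose in KO kidneys lies near its share. Areg, the EGF receptor ligand amphiregulin, was at the floor in all 6 controls and reached 29.4 ± 13.3 in WT NTS and 64.4 ± 17.7 in KO NTS (2.23-fold higher in KO among treated kidneys, adjusted p = 0.0151). Its KO NTS values were needed to pass the filter, as for Fosl1. Lif, an interleukin-6 family cytokine, was 4.70-fold higher in KO among treated kidneys (adjusted p = 0.00528). Pdgfrb, the PDGF receptor of mesenchymal cells, was 2.44-fold higher there (adjusted p = 0.00505). Egf differed in the other direction (log2 difference -2.58, adjusted p = 0.00142). Egfr differed by 0.43 (adjusted p = 0.0396), and its sign turned with median centring and quantile normalization. On those scalings the counts for KO kidneys were 3 higher and 4 lower, and 4 and 4.

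Of 5 stress kinases tested, 1 rose in KO kidneys: Map3k8, a kinase that activates MEK and ERK downstream of innate receptors. It went from 61.6 ± 9.1 to 176 ± 29.2 (2.81-fold, adjusted p = 0.000712) and was 2.10-fold higher in KO among treated kidneys (adjusted p = 0.00896). Eif2ak2, the double-stranded RNA kinase PKR, was 1.85-fold higher in KO among treated kidneys (adjusted p = 0.0156). Map3k12, Map3k5 and Map3k7 had differences of 0.50, -0.06 and 0.00 there. The median change of these 5 in KO kidneys was 0.48, beside 0.42 for all genes, of which 39.6% rose. With median centring or quantile normalization the differences between treated kidneys of Batf3, Dusp2, Areg, Map3k8 and Eif2ak2 did not pass, nor did those of Brca1, Ccne1 and Slc2a1 described next.

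Among 14 partners and textbook targets of MYC, 6 rose and 1 fell in KO kidneys, 2 rose and 4 fell in WT kidneys, and 4 were higher in KO among treated kidneys. Of all genes, 39.6% rose and 8.57% fell in KO kidneys, and 5.47% rose and 2.51% fell in WT kidneys, so the KO count lies near the background. Among treated kidneys 31.2% of all genes were higher in KO, which is also near the count of this list. The median change of the list in KO kidneys was 0.39, beside 0.42 for all genes. Hk2, the inducible hexokinase, went from 17.1 ± 6.04 (2 of 3 at the floor) to 82.9 ± 30.7 in KO kidneys and was 4.35-fold higher in KO among treated kidneys (adjusted p = 0.00396). Hk2 passed the filter only with its KO NTS values, the limit given for Fosl1. Ccne1, cyclin E1, was at 78.3 ± 2.94 in KO NTS and 42.2 ± 11.5 in WT NTS (adjusted p = 0.0214). Brca1, a DNA repair factor, was 1.91-fold higher in KO among treated kidneys (adjusted p = 0.00896). Slc2a1, the glucose transporter GLUT1, fell by 1.01 on the log2 scale in WT kidneys (adjusted p = 0.044). Its WT groups overlapped, and the fall was called on 2 of 5 scalings. Among treated kidneys Slc2a1 was 1.94-fold higher in KO (adjusted p = 0.0178). Tfrc, the transferrin receptor and a housekeeping gene of the panel, fell by 1.62 in KO kidneys (adjusted p = 0.00017), against the direction of Myc. With median centring this list had 5 higher and 6 lower in KO kidneys, and with quantile normalization 5 and 5.

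Among 16 textbook AP-1 target genes, 9 rose and 2 fell in KO kidneys, 3 rose in WT kidneys, and 8 were higher and 1 lower in KO among treated kidneys. The median change in KO kidneys was 1.61, beside 0.42 for all genes. For all genes, 39.6% rose and 8.57% fell in KO kidneys, and 5.47% rose in WT kidneys. Among treated kidneys 31.2% were higher and 2.36% lower in KO. Cxcl2, a neutrophil attractant, was at 106 ± 16.3 in KO NTS and 24.3 ± 14.3 in WT NTS (4.61-fold, adjusted p = 0.005). Like Fosl1, Cxcl2 passed the filter only with its KO NTS values. Tgfb1, which encodes transforming growth factor beta 1, was 2.29-fold higher (adjusted p = 0.00584) and Lif, named above, is a member too. Mmp7, a protease of injured tubules, and Spp1, osteopontin, had differences of 3.25 and 2.21 (adjusted p = 0.00505 and 0.00577). Quantile normalization gives Spp1 a difference of 0, since it is the top-ranked gene of each sample. Median centring gave 8 higher and 3 lower of this list in KO kidneys, beside 134 higher and 269 lower of the 677 genes tested. Of 8 kidney injury genes, which share Spp1, Mmp7, Ccl2 and Cd44 with that list, 7 rose in KO and 2 in WT kidneys, and 7 were higher in KO among treated kidneys. Csf1, a macrophage growth factor, stood at 452 ± 81.6 in KO NTS and 140 ± 76.1 in WT NTS (3.48-fold, adjusted p = 0.005). The adhesion molecule Icam1 and the monocyte attractant Ccl2 were 2.43-fold and 4.69-fold higher (adjusted p = 0.00685 and 0.00699).

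Cell type markers moved in the same samples. In whole kidney, more cells of a type and more RNA per cell cannot be told apart, and for these 4 genes neither can the cell type that carries them. As background for the marker counts, 39.6% of all genes rose in KO kidneys, 5.47% rose in WT kidneys and 31.2% were higher in KO among treated kidneys. With median centring, 134 of the 677 genes tested rose in KO kidneys and 77 were higher in KO among treated kidneys. Quantile normalization gave 159 and 90. Of 11 macrophage markers measured, 9 rose in KO kidneys, 3 in WT kidneys and 10 were higher in KO among treated kidneys (7 with median centring or quantile normalization). Their summed signal was 1672 to 2221 (WT control), 2115 to 4673 (WT NTS), 2152 to 2373 (KO control) and 6877 to 8786 (KO NTS). Among treated mice it was highest in WT NTS 1 and KO NTS 1, as for the 4 genes, and it followed their order among KO NTS mice. Of all genes tested, 62.9% were highest in WT NTS 1 among WT NTS mice, and 16.7% had that order among KO NTS mice. Among WT controls the macrophage sum was lowest in WT control 1 (1672), the mouse that was highest for all 4 genes. None of the 11 was at the floor in a whole group. All 5 dividing-cell markers tested rose in both genotypes, and 0 of 5 differed between treated KO and WT kidneys (summed signal 2991 to 3643 against 1456 to 3436). Of 6 tubular markers, 4 fell and 1 (Cdh1) rose in KO kidneys, where 8.57% of all genes fell (0 of the 6 rose with median centring or quantile normalization), and their summed signal was 16220 to 27116 in KO NTS and 44489 to 65178 in WT NTS. Of the 5 neutrophil markers on the panel, Ly6g was at the floor in all mice of both control groups. The neutrophil sum was 250 to 361 in KO NTS and 122 to 264 in WT NTS, and 0 of 3 markers tested passed between them. The pan-leukocyte markers Ptprc and Cd48 did not pass there either (0 of 2). Of 3 mesenchymal markers, 3 were higher in KO NTS than in WT NTS, but 1 with median centring or quantile normalization. The T cell sums of KO NTS and WT NTS mice overlapped (222 to 315 and 186 to 297). Of 8 T cell markers tested, 1 was higher in KO NTS: Cd4, called on all 5 scalings (log2 difference 0.67 to 1.46). For B cells, 0 of 2 markers tested passed between KO NTS and WT NTS. Podocyte markers were not analysed here. What part these shifts have in the 4 genes was not tested.

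The genes most like each member were those with the smallest root mean square difference of centred log2 signal over the 12 samples. All 12 share the 4 groups, so likeness reflects mostly the group pattern. For Dusp5 they were Tnfrsf11a (0.15), Tmem173 (0.22), Cd68 (0.26), Tpsab1 (0.27) and Myc (0.28). Tnfrsf11a, the receptor RANK, stood at 676 ± 23.6 in KO NTS and 261 ± 161 in WT NTS, and its controls at 133 ± 16.1 (KO) and 149 ± 61.8 (WT). For Myc they were Cd84 (0.25), Dusp5 (0.28), Tmem173 (0.28), Pirb (0.30) and Birc3 (0.31). Atf3 was most like Ms4a6b (0.33), Cd68 (0.39), Myc (0.40), Ccl9 (0.40) and Tlr2 (0.44). Fosl1 was most like Itgb3 (0.29), Sbno2 (0.32), Ccl11 (0.34), Thbs1 (0.35) and Hmga1 (0.35), and none of the other 3 members came before place 87 in its list. Itgb3, integrin beta 3, shared with Fosl1 a rise seen in KO kidneys (3.03-fold, adjusted p = 0.00038) next to a change of 0.09 in WT kidneys (adjusted p = 0.894). Since Itgb3 was picked for its likeness over these same samples, the shared pattern describes the match and adds no support.

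**Figure D5:**
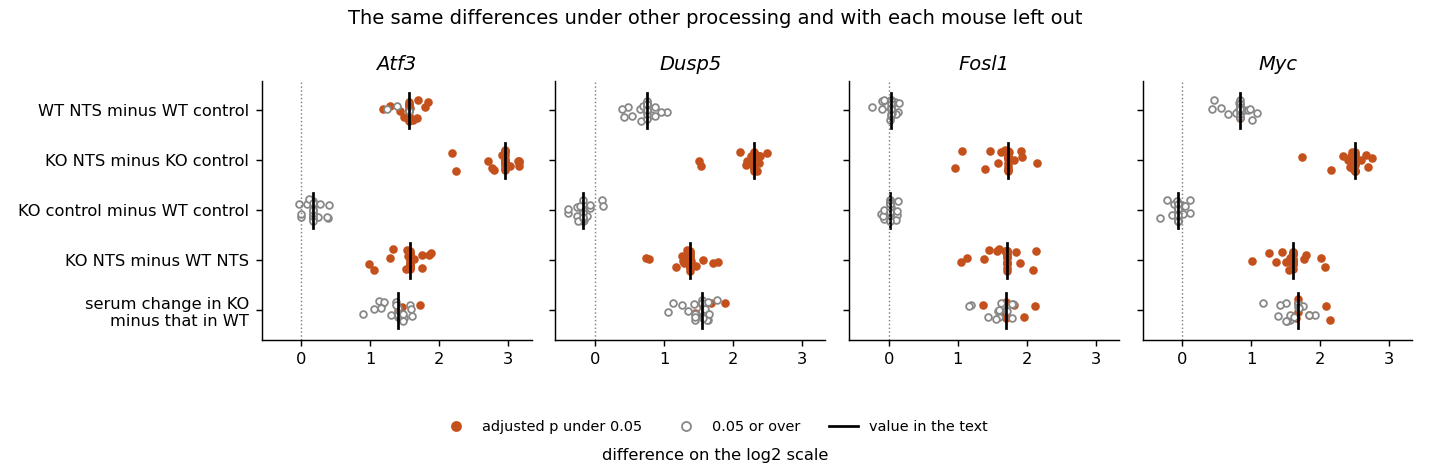
The same differences (log2 scale, x axis) under each alternative processing and with each mouse left out (points, orange where the adjusted p was under 0.05), with the value in the text as a black line. For serum in KO and for KO NTS against WT NTS all points are orange, while the difference in response moves across the threshold for each gene. Fosl1 entered the test only through its KO NTS values, so its points describe the samples.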

How the data were processed

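Total RNA from the kidneys of 12 mice was measured on a panel with 1 probe per gene. The authors deposited a normalized signal per gene. From the values, housekeeping genes had a geometric mean of 380.1 per sample (384.2 for KO control 3), and the lowest signal equalled the geometric mean of the 8 negative controls. Per the file headers a further column gives, in percent, how many samples passed a threshold, and it equalled the share above the floor for 770 of 770 genes. Above the floor, 97.4% to 100% of values under 200 were whole multiples of 1 step per sample (within 0.0055 of signal). The control rows hold unscaled counts. Instrument, software and run are not given in the sources used here.

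Tests used limma 3.58.1 in R 4.3.3 on log2(signal + 1) of the 677 genes that reached a signal of 20 in 3 or more samples, with all 12 samples, 1 mean per group, a variance trend, two-sided p-values and Benjamini-Hochberg adjustment over all genes of each of 5 comparisons (threshold 0.05). Fold changes on this scale understate those of low genes. The steps were tested on simulated data. Genes named from each list are the up to 5 with the smallest p among treated kidneys. The members and lists were chosen with earlier results of these data known. A count test planned for whole counts was not run, since values at the floor hold no count. Each column of values matched 1 label (0 left over). Alternatives were the pseudocount, filters, 4 scalings, variance models, sample weights, the replicate block, fewer samples and each mouse left out.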

Additional observations from a re-analysis of the deposited data

Results flagged for a closer look

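The change of Myc after the serum differed between genotypes by the test of the difference itself (limma interaction term, KO minus WT). It was 1.67 (adjusted p = 0.0469), where all 3 KO NTS mice and 2 of 3 WT NTS mice lay above their own controls. Over the 23 alternatives the adjusted p ranged from 0.000804 to 0.125, and it was under 0.05 in 7 of them.

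The same term was 1.70 for Fosl1 (adjusted p = 0.0356; 0.00211 to 0.102 over the alternatives). Fosl1 entered the test only through its KO NTS values, which fixed the direction, and 5 of the 9 other mice were at the floor, so this value describes the samples and supports no difference in response.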

How the results depend on the processing

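Atf3, Dusp5 and Myc kept their direction and adjusted p under 0.05 in KO kidneys and between treated kidneys in all 24 alternatives. Fosl1 did so in its 23 alternatives, since a filter at a signal of 50 removes it. Its KO NTS values brought it into the test, so for Fosl1 this only describes the samples. The highest adjusted p was 0.0448, for Dusp5 between treated kidneys with quantile normalization. Over 20 results and 471 alternatives, 411 kept direction and side of the threshold, 32 lost and 9 gained a call, and 19 changed sign, all of the latter in results that were not called.

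The median change of all genes in KO kidneys was 0.42 and moved to -0.35 with median centring, -0.19 with quantile normalization, 0.38 on common reference genes and 0.62 on positive controls. Between treated kidneys it was 0.45, -0.14, -0.07, 0.41 and 0.63. In both comparisons Atf3, Dusp5 and Myc stayed above these medians on each scaling, and so did Fosl1 within its limit.

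In WT kidneys, the Atf3 change of 1.55 lost its call with only the samples compared, and ran from 1.24 to 1.84 with each mouse left out. Myc gained a call with the replicate block (0.83, adjusted p = 0.0495). Fosl1 turned to -0.24 with median centring, -0.097 with quantile normalization and -0.020 with sample weights, and ran from -0.091 to 0.14 with mice left out. In untreated kidneys, Atf3 was -0.0068 with quantile normalization (mice left out, -0.035 to 0.40), and Dusp5 was 0.097 with sample weights (-0.40 to 0.12). Fosl1 there was -0.070 with median centring and -0.11 with quantile normalization (-0.082 to 0.12). Myc was 0.0015 on common reference genes and 0.041 on positive controls (-0.32 to 0.11).

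The difference in response passed for Atf3 with sample weights (1.46) and the replicate block (1.40; mice left out, 1.12 to 1.71). For Dusp5 it passed with a pseudocount of 8 (1.45), a filter at 50 (1.56), sample weights (1.69) and the replicate block (1.56; mice left out, 1.26 to 1.89). Fosl1 lost it with positive controls (1.78), common reference genes (1.60), median centring (1.20) and quantile normalization (1.16), with 1.44 to 2.12 when mice were left out. Myc lost it with the same 4 (1.75, 1.56, 1.17 and 1.38), without a filter and without a variance trend (1.67 for both), with 1.42 to 2.08 when mice were left out.

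Counts of all genes called moved too. In WT kidneys 54 became 126 with sample weights and 2 with only the samples compared (mice left out, 9 to 94). In untreated kidneys 0 became 79 with sample weights (0 to 22). Between treated kidneys 227 became 373 and 141 (129 to 329). For the difference in response 70 became 1 on common reference genes, 20 with median centring, 46 with quantile normalization, 9 on positive controls, 44 without a trend and 291 with sample weights (0 to 207). The causes were not tested. The planned count test was not run. The iterative fit of the sample weights stopped before it converged.

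The replicate numbers did not pair the mice: deviations of same-numbered mice correlated between -0.298 and 0.395. The block changed no other call of the 4 genes. The number of mice and, for Fosl1, the floor limit the precision.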
